A study of Mus musculus with 48 samples.

Results

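The immediate early genes described here are 10 genes chosen by name, not by their measured values: the AP-1 subunit genes Fos, Fosb, Fosl2 and Junb, the zinc finger genes Egr1, Egr2 and Egr3, the synaptic gene Arc, the neuronal factor gene Npas4 and the nuclear receptor gene Nr4a1. They are 10 of the 18883 genes that had a named probe on the array, and 12 probes measured them, since Fosl2 and Junb each had 2. RNA came from frontal cortex and hypothalamus of 24 mice on a C57BL/6 background, 8 of each genotype, and 1 array was hybridised per tissue and mouse. Per3 5/5 mice (labelled Boxhill) and Per3 4/4 mice (labelled Coach) carried a knock-in in which an exon of the mouse Per3 gene is replaced by the human PER3 exon with 5 or 4 copies of its coding repeat. The WT mice came from the same conditional transgenic stock, Cre was expressed in none of the animals, and each genotype was bred from homozygous pairs. Every mouse, WT included, was killed after 12 h of sleep deprivation with unfamiliar objects during the light phase, which the labels call sleep displacement. Because no rested mice were among the 24, the effect of sleep loss itself could not be measured, and the comparisons are between tissues, between genotypes and between mice. The sex of the mice behind the arrays was not given in the sources used here.

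Immediate early genes are transcribed within minutes of synaptic activity or a growth signal, before any new protein is made, because CREB and serum response factor already sit on their promoters and are switched on by kinases. Most of their products are transcription factors, whereas ARC protein acts at synapses, where it drives the removal of AMPA receptors. In rodent cerebral cortex their RNA is known to be high in waking and low in sleep, and they are widely used as markers of recently active neurons.

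RefSeq promoters (GRCm38.p6) were searched for 7 of the 10 genes, and a stretch of up to 250 bases upstream of the start site is printed for 5 of them that hold a CREB core site. They are shown because the cortical levels of these genes moved together between mice. They read 5′ to 3′ on the strand of the gene, and capitals mark TGACG or its reverse complement CGTCA (the core of the CREB site), the CArG box that serum response factor binds, and TATAAA.
Fos, chr12:85473640-85473889, plus strand: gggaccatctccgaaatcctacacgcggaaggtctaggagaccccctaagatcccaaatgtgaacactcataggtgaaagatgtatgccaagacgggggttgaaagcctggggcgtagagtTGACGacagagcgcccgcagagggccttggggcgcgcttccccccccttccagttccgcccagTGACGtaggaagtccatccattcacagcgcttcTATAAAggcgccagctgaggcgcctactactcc
Junb, chr8:84978749-84978998, minus strand: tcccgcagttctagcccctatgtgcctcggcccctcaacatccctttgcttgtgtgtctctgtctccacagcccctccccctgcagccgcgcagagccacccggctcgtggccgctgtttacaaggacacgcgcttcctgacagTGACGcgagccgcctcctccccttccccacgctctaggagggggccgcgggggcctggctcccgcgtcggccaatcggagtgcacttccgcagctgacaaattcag
Nr4a1, chr15:101266596-101266845, plus strand: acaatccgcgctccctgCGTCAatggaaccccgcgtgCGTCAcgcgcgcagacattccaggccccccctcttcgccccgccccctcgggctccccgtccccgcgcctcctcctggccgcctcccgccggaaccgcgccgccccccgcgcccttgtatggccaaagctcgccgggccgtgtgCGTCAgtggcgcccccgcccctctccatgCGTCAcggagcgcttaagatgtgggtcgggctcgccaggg
Npas4, chr19:4989972-4990221, minus strand: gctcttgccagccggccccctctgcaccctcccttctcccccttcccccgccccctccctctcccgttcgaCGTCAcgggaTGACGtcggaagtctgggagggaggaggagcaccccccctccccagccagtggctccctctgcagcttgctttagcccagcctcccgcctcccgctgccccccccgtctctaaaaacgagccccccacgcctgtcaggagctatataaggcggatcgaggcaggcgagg
Egr2, chr10:67537795-67537822, plus strand: gtCCATATATGGgcagcgaCGTCAcggg
Core sites lay 129 and 66 bases upstream of the Fos start with TATAAA 33 bases upstream, 106 bases upstream of Junb, at 233, 213, 69 and 40 bases upstream of Nr4a1, and at 179 and 169 bases upstream of Npas4. For Egr2 the printed 28 bases hold a CArG box and a core site, 73 and 56 bases upstream of the start at position 67537870, 1 of several RefSeq starts of the gene, and another core site lay at 112. Among all 32851 RefSeq promoters, 17.8% held TGACG on either strand in the 250 upstream bases, 1.47% held a CArG box and 7.59% held TATAAA on the strand of the gene. Within the 250 upstream bases Fosb also held 1 core site, Fosl2 held none, and no CArG box was in the other 6 genes. Sequence farther upstream was not searched for any motif, so a motif called absent may lie there. The palindrome TGACGTCA, which contains the core and was found in 1.55% of promoters, was in none of the 7 genes, and neither was the AP-1 motif TGANTCA with C or G at N (4.46%). The EGR motif GCGNGGGCG with G or T at N was found once each in Fosl2, Fosb and Nr4a1, against 3.06% of promoters. Such matches describe letters and are not measured binding sites.

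A level is given throughout as the log2 signal of a probe minus the log2 75th percentile of its array, so that 0 means as bright as that percentile. Levels are compared for 1 probe at a time, never between genes. The 75th percentile itself ran from 307 to 1884 intensity units, lowest on the arrays of Per3 4/4 replicates 6 and 7, and no spot was saturated. Pearson's r between arrays of a group lay between 0.968 and 0.989. Fos and Egr2 were spotted 10 times per array, and the SD between their spots (median 0.07 for Fos in either tissue, 0.067 in cortex and 0.117 in hypothalamus for Egr2) was small beside the SD between mice of a genotype, which was 0.47 in cortex and 0.28 in hypothalamus for Fos and 0.59 and 0.51 for Egr2. All 8 frontal cortex markers were above background in cortex and all 10 hypothalamus markers were above background in hypothalamus. In the opposite tissue all 8 frontal cortex markers and 8 of the 10 hypothalamus markers (not Nkx2-1 and Sim1) were above background too. The log2 of the summed signals differed: in WT mice the frontal cortex markers had medians of 4.73 in cortex and 0.78 in hypothalamus. The hypothalamus markers had medians of 0.38 in cortex and 8.4 in hypothalamus. A few samples stood apart in markers of neighbouring tissue, given as the log2 of their summed signals. For 6 pituitary genes it was 9.55 in the hypothalamus of WT replicate 8 and 5.47 in that of Per3 5/5 replicate 8, against 0.46 to 2.63 in the other WT mice. For 8 striatum genes it was 7.32 in the cortex of WT replicate 3 (4.69 to 6.32 in the other WT mice), and for the hypothalamus markers 2.37 in the cortex of Per3 5/5 replicate 5. The arrays were scanned on 3 days and the genotypes were spread unevenly over them. No WT array was scanned on day 1 and no Per3 5/5 array on day 2. No slide held both Per3 5/5 and WT arrays, so these genotypes could not be compared within a slide, even on the day they shared. The called genotype differences are also given with scan day in the fit and within the 1 day that held enough mice of both genotypes.

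**Figure D1:**
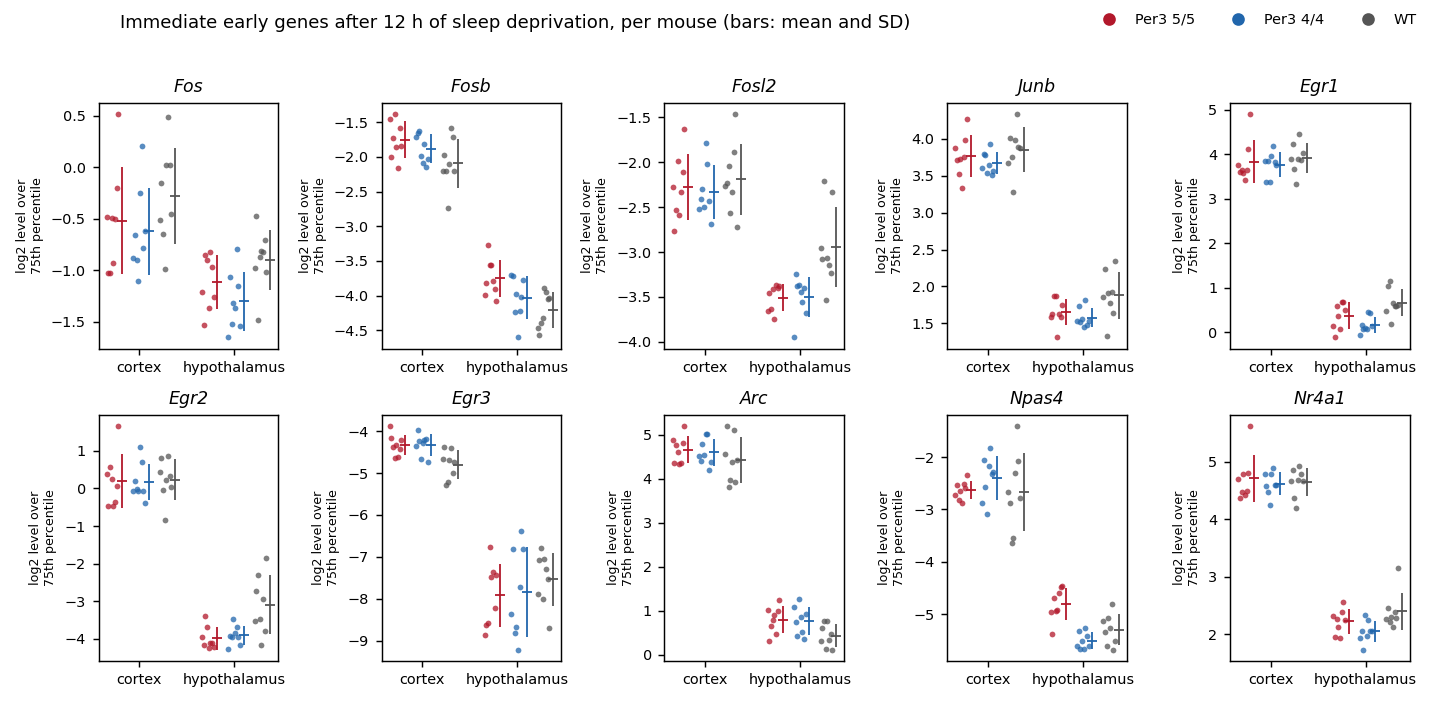
Level of each gene per mouse (vertical axis, log2 signal over the 75th percentile of the array) in cortex and hypothalamus, by genotype, 1 point per mouse with bars for mean and SD. Arc, Egr1, Egr2, Junb, Nr4a1, Npas4 and Fosb separated the tissues completely, Fos did not, and the Egr3 points in hypothalamus were not above background. The share of all probes that separate the tissues completely was not computed.

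All 10 genes were lower in hypothalamus than in frontal cortex of the same mice after sleep deprivation, to 0.646 of the cortex level for Fos but to 0.0922 for Egr1, 0.0686 for Egr2 and 0.0672 for Arc. The 12 probes were called lower in each of the 3 genotypes (Egr3 on a signal that was background in hypothalamus). Of all 31228 probes, 29.1% were called lower in Per3 5/5, 27.9% in Per3 4/4 and 27.7% in WT mice. In either direction 58.6%, 59% and 59.5% were called. Over all 24 mice 73.6% of probes were called in either direction and 35.6% were called lower. The median difference was 0.01 (log2) over all probes and -2.09 over the 11 probes measured in both tissues. It was -2.18 over 12 with Egr3 at the bound given below. The share of all probes without overlap between the tissues was not computed, so the lack of overlap described below has no such share beside it. In bulk tissue, fewer cells that express a gene and less RNA per cell cannot be told apart.

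Arc and Egr2 had the largest mean differences, Egr2 larger in both knock-ins (-4.19 and -4.08, against -3.86 and -3.83 for Arc) and Arc larger in WT mice (-3.99 against -3.33). The Arc level lay between 3.81 and 5.20 in cortex and between 0.12 and 1.26 in hypothalamus, so no hypothalamus sample came near any cortex sample. Its mean difference within mice was -3.90 (SE 0.09, n = 24, adjusted p = 7.02e-22), with a fitted 95% interval of -4.08 to -3.71.

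The EGR factors, which bind GC-rich sites in the promoters of later response genes, fell about as far. Egr1 lay between 3.34 and 4.91 in cortex and between -0.11 and 1.15 in hypothalamus, a difference of -3.44 (SE 0.08, adjusted p = 3.2e-22). Egr2 lay between -0.83 and 1.66 in cortex and between -4.28 and -1.84 in hypothalamus, a difference of -3.87 (SE 0.14, adjusted p = 8.67e-18). Neither gene overlapped between the tissues. Egr3 was well above background on all 24 cortex arrays (-5.29 to -3.88) and on no hypothalamus array. Only a rough bound can therefore be given for it. Its hypothalamus level was set at the array's dimmest probe signal that was well above background, or at its own signal where that was brighter. With the main processing, cortex was then 5.1-fold higher in Per3 5/5, 4.88-fold higher in Per3 4/4 and 4.62-fold higher in WT mice. A probe brighter than that dimmest signal can still fall short of well above background, so these folds are not strict lower limits. Under the alternatives its fitted log2 difference, on a background signal in hypothalamus, ran from -3.36 to -0.78. The smallest is less than these rough bounds, which therefore apply to the main processing only.

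Npas4, a factor induced by calcium entry in neurons, lay at -3.64 to -1.41 in cortex and at -5.67 to -4.45 in hypothalamus. Nr4a1, an orphan nuclear receptor, lay at 4.19 to 5.62 in cortex and at 1.73 to 3.15 in hypothalamus. Neither overlapped, and the differences were -2.63 (SE 0.10) and -2.44 (SE 0.07), with adjusted p = 5.69e-18 and 9.96e-20. With normexp background correction, that of Npas4 was -1.43.

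The AP-1 genes were unequal among themselves. Fosb, whose product pairs with JUN proteins, lay between -2.73 and -1.38 in cortex and between -4.60 and -3.27 in hypothalamus, a difference of -2.09 (SE 0.07, adjusted p = 7.94e-19). The 2 Junb probes differed by -2.07 and -2.04 (adjusted p = 5.46e-20 and 5.18e-19), again without overlap. Fos, the partner of JUN proteins that gave the family its name, spanned -1.10 to 0.52 in cortex and -1.65 to -0.47 in hypothalamus, so that the tissues overlapped. Within mice Fos was still lower in hypothalamus in 8 of 8 Per3 4/4, 7 of 8 Per3 5/5 and 7 of 8 WT mice, with a mean difference of -0.63 (SE 0.09, adjusted p = 6.66e-07). Fosl2, a FOS relative, also overlapped, and its brighter and dimmer probes differed by -1.05 and -0.83 (adjusted p = 1.4e-10 and 5.92e-05). In WT mice alone the dimmer probe was called only narrowly (-0.65, adjusted p = 0.0498, and -0.41 with adjusted p = 0.279 with scan day in the fit).

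**Figure D2:**
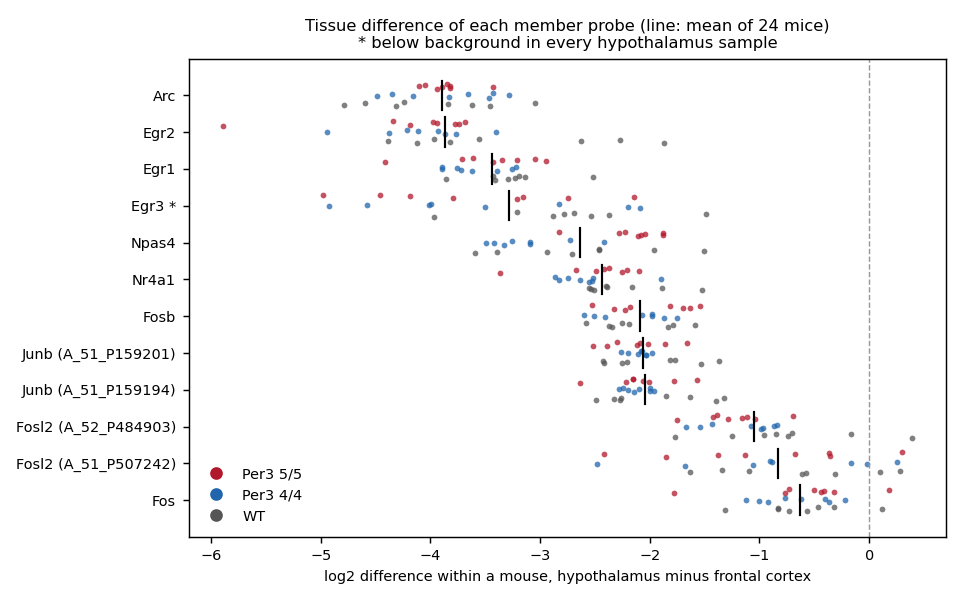
Difference hypothalamus minus cortex within each mouse (horizontal axis, log2) for the 12 probes, 1 point per mouse coloured by genotype, with a line at the mean of 24 mice. Means run from -3.90 for Arc to -0.63 for Fos, and the asterisk marks Egr3, whose hypothalamus value is background.

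The genotypes differed less than the tissues. In hypothalamus, 5 of the 11 probes tested were called between Per3 5/5 and WT mice, 2 higher and 3 lower. Of all 30735 probes 18.8% were called, 10.3% higher and 8.55% lower. Between Per3 4/4 and WT mice 5 were called, all lower, beside 15.1% of all probes called and 6.81% called lower. The median difference of the 11 probes was -0.22 for Per3 5/5 and -0.35 for Per3 4/4, against 0.03 and 0.02 over all probes. With scan day in the fit 1 and 0 of these calls remained, beside 2.1% and 0.745% of all probes. Within 1 scan day (4 against 3 mice for Per3 5/5, 3 against 5 for Per3 4/4) none did, beside 0.00325% and 0.0163%. With normexp background correction 0 and 1 (Junb) remained. The 3 Per3 4/4 mice compared within 1 scan day include replicates 6 and 7, whose arrays were the dimmest in both tissues. The 2 comparisons share the WT mice. Genotype differences of these 11 probes with a 95% interval are drawn with and without scan day in the plot of knock-in against WT mice.

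**Figure D3:**
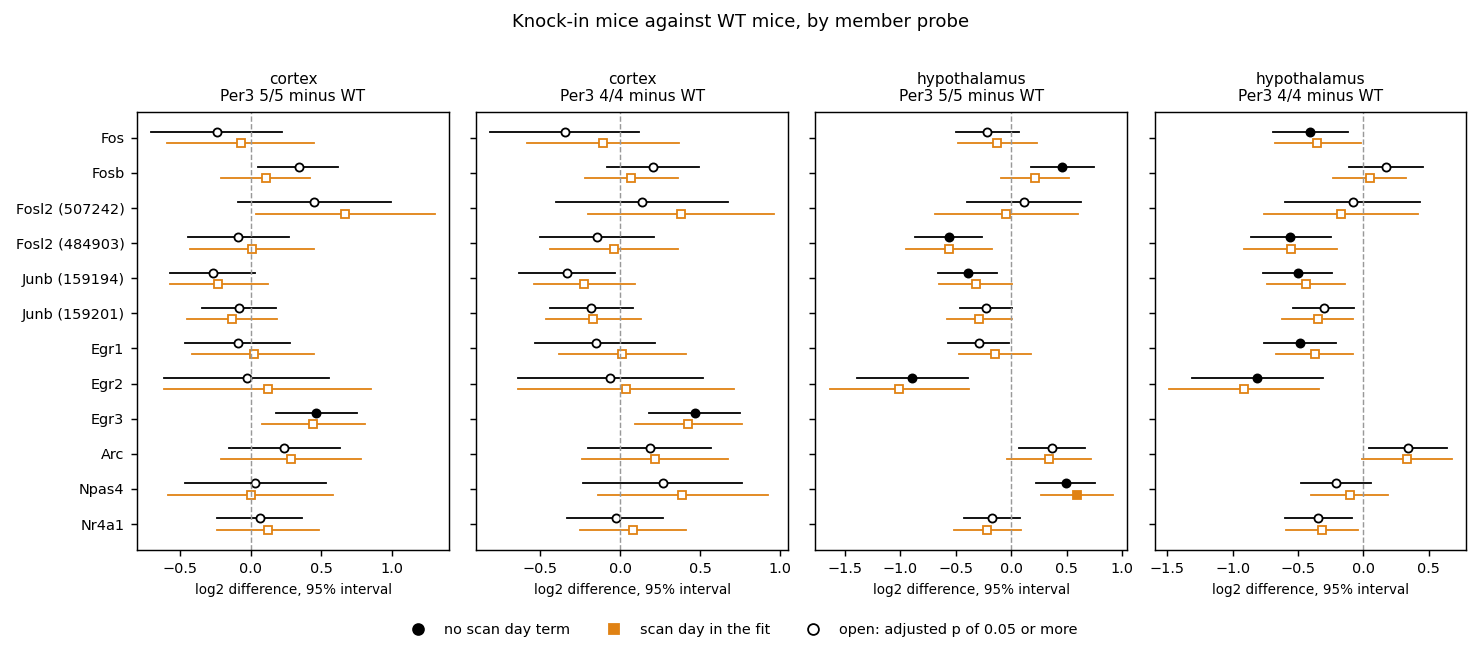
Differences of both knock-ins from WT mice (horizontal axis, log2, lines 95% interval) for each probe, in black without and in orange with scan day in the fit. Filled symbols have an adjusted p under 0.05. Npas4 in the hypothalamus of Per3 5/5 mice is the only filled orange symbol.

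Npas4 was higher in the hypothalamus of Per3 5/5 than of WT mice. Its levels were -5.37, -4.80 and -4.45 (lowest, median, highest of 8) in Per3 5/5, -5.66, -5.55 and -5.25 in Per3 4/4, and -5.67, -5.29 and -4.80 in WT mice. Of the Per3 5/5 mice, 4 lay above every WT mouse and 7 lay above every Per3 4/4 mouse, with replicate 2 the exception. Against WT mice the difference was 0.49 (SE 0.13, 1.41-fold, adjusted p = 0.0132). It was 0.59 (adjusted p = 0.0492) with scan day in the fit and 0.71 (adjusted p = 0.235) within 1 scan day. Against Per3 4/4 mice it was 0.70 (SE 0.13, 95% interval 0.43 to 0.97, unadjusted p = 1.71e-05), 0.70 with scan day in the fit and 0.53 within 1 scan day, but its adjusted p over all probes was 0.172. Of the 24 mice left out in turn, it passed only without Per3 5/5 replicate 2, the exception just named (0.78, adjusted p = 0.0177), and otherwise had an adjusted p of 0.104 to 0.364. The probe is dim in hypothalamus, and with another background correction (normexp) the differences were 0.30 from WT mice (adjusted p = 0.403) and 0.03 from Per3 4/4 mice (adjusted p = 0.961). Between mice Npas4 in hypothalamus correlated with the summed frontal cortex markers (r = 0.50), choroid plexus markers (r = 0.51) and vascular cell markers (r = -0.59, genotype means removed, descriptions), and their part in the difference was not tested.

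Fosb was higher in the hypothalamus of Per3 5/5 mice too. Levels were -4.07, -3.80 and -3.27 in Per3 5/5, -4.60, -4.00 and -3.70 in Per3 4/4 and -4.56, -4.19 and -3.89 in WT mice, and 5 of 8 Per3 5/5 mice lay above every WT mouse. The difference from WT mice was 0.46 (SE 0.14, adjusted p = 0.0229). It fell to 0.22 (adjusted p = 0.386) with scan day in the fit and 0.18 (adjusted p = 0.503) within 1 scan day. Fosb rose and fell with the summed hypothalamus markers between mice (r = 0.58, genotype means removed, n = 24, a description), whose part in the difference was not tested.

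Egr2 was lower in the hypothalamus of both knock-ins. Its levels were -4.24, -4.11 and -3.40 in Per3 5/5 and -4.28, -3.93 and -3.47 in Per3 4/4 mice, and WT mice were spread much more widely, at -4.17, -3.20 and -1.84. The difference from WT was -0.89 (SE 0.24, adjusted p = 0.0148) for Per3 5/5 and -0.81 (SE 0.24, adjusted p = 0.0293) for Per3 4/4 mice. With scan day in the fit the differences were -1.01 and -0.91 (adjusted p = 0.0702 and 0.0962), and within 1 scan day -1.32 and -0.59 (adjusted p = 0.231 and 0.579). With normexp background correction they were -0.52 (adjusted p = 0.0999) and -0.32 (adjusted p = 0.224). The highest WT value came from replicate 8, the sample with the pituitary genes, and the next, -2.30 and -2.74, from replicates 3 and 2. Egr2 correlated between mice with the pituitary markers at r = 0.47 (a description), whose part in the difference was not tested. Without WT replicate 8 and Per3 5/5 replicate 8 the differences were -0.68 (adjusted p = 0.0445) and -0.63 (adjusted p = 0.0546).

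Egr1 and Fos were lower in the hypothalamus of Per3 4/4 mice. Egr1 levels were -0.05, 0.13 and 0.46 in Per3 4/4, -0.11, 0.44 and 0.69 in Per3 5/5 and 0.20, 0.61 and 1.15 in WT mice, and 6 of 8 Per3 4/4 mice lay below every WT mouse. The difference was -0.49 (SE 0.13, adjusted p = 0.021), and -0.37 (adjusted p = 0.164) with scan day in the fit and -0.38 (adjusted p = 0.567) within 1 scan day. Fos levels were -1.65, -1.34 and -0.79 in Per3 4/4, -1.53, -1.09 and -0.82 in Per3 5/5 and -1.48, -0.84 and -0.47 in WT mice, with 3 Per3 4/4 mice below every WT mouse. The Fos difference of -0.41 (SE 0.14, adjusted p = 0.0496) sat at the threshold: it became -0.35 (adjusted p = 0.225) with scan day in the fit and -0.18 (adjusted p = 0.747) within 1 scan day. Between mice Fos correlated in hypothalamus with the vascular cell markers (r = -0.53) and the frontal cortex markers (r = 0.46, descriptions). The vascular sums had medians of 4.47 in Per3 4/4 and 4.20 in WT mice, and the part of either list in the difference was not tested.

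The genes with 2 probes gave less clear differences. In hypothalamus the Junb probe A_51_P159194 was lower in Per3 5/5 (-0.39, SE 0.13, adjusted p = 0.0342) and in Per3 4/4 mice (-0.50, SE 0.13, adjusted p = 0.0158). Its levels were 0.43, 0.85 and 0.98 in Per3 5/5, 0.39, 0.68 and 1.06 in Per3 4/4 and 0.74, 1.15 and 1.75 in WT mice, so that 6 of 8 Per3 4/4 mice lay below every WT mouse. The Junb probe A_51_P159201 gave -0.23 (adjusted p = 0.16) and -0.30 (adjusted p = 0.071), the same sign but short of the threshold. With scan day in the fit the differences of the first probe were -0.32 (adjusted p = 0.235) and -0.44 (adjusted p = 0.115), and within 1 scan day -0.46 and -0.30. The Fosl2 probe A_52_P484903 gave -0.56 (SE 0.15) in both knock-ins (adjusted p = 0.0125 for Per3 5/5 and 0.019 for Per3 4/4 mice). Its levels were -3.75, -3.44 and -3.37 in Per3 5/5, -3.95, -3.42 and -3.25 in Per3 4/4 and -3.53, -3.07 and -2.21 in WT mice. The dimmer Fosl2 probe A_51_P507242 gave 0.11 (adjusted p = 0.775) and -0.08 (adjusted p = 0.838), with 95% intervals of -0.40 to 0.63 and -0.60 to 0.43, and it was well above background on only 6 and 5 of 8 knock-in arrays. With normexp background correction the brighter probe gave -0.26 (adjusted p = 0.364) and -0.08 (adjusted p = 0.74). With scan day in the fit the brighter probe gave -0.56 (adjusted p = 0.0944) and -0.55 (adjusted p = 0.103), and within 1 scan day -0.57 and -0.50. Frontal cortex markers, against which Fosl2 correlated at r = -0.60 and Egr2 at r = -0.46 between mice in hypothalamus (a description), summed to a median of 0.78 in WT, 1.15 in Per3 5/5 and 0.98 in Per3 4/4 hypothalamus, and their part in these differences was not tested.

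Arc and Nr4a1 were not called in hypothalamus. Arc levels were 0.32, 0.85 and 1.25 in Per3 5/5, 0.36, 0.80 and 1.26 in Per3 4/4 and 0.12, 0.40 and 0.76 in WT mice, differences of 0.37 (adjusted p = 0.075) and 0.34 (adjusted p = 0.103). Both were 0.34 with scan day in the fit (adjusted p = 0.274 and 0.273), and within 1 scan day 0.60 and 0.07. Nr4a1 levels were 1.93, 2.26 and 2.55 in Per3 5/5, 1.73, 2.05 and 2.34 in Per3 4/4 and 2.13, 2.29 and 3.15 in WT mice. Although 6 of 8 Per3 4/4 mice lay below every WT mouse for Nr4a1, the difference was -0.35 (SE 0.12, adjusted p = 0.0572), and -0.32 (adjusted p = 0.204) with scan day in the fit and -0.18 within 1 scan day.

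In frontal cortex, Egr3 alone was called, and it was higher in both knock-ins. Its levels were -4.63, -4.35 and -3.88 in Per3 5/5, -4.73, -4.26 and -3.97 in Per3 4/4 and -5.29, -4.71 and -4.39 in WT mice. Of the knock-in mice, 5 of 8 Per3 5/5 and 6 of 8 Per3 4/4 lay above every WT mouse. Both differences were 0.47 (SE 0.14, 1.38-fold, adjusted p = 0.0332 for Per3 5/5 and 0.0206 for Per3 4/4 mice). That is 1 of 12 probes in each comparison, beside 12.4% and 22.5% of all 29715 probes, and the median of the 12 probes was 0.00 and -0.05 against 0.06 and 0.02 over all probes. With scan day in the fit the Egr3 differences were 0.44 (adjusted p = 0.147) and 0.42 (adjusted p = 0.101), where 0.986% and 7.72% of all probes were called, and within 1 scan day they were 0.31 (adjusted p = 0.395) and 0.62 (adjusted p = 0.134), beside 0.00337% and 0.552%. Egr3 followed the summed frontal cortex markers between mice (r = 0.71, genotype means removed, n = 24, a description). The sums had medians of 4.70, 4.72 and 4.73 in Per3 5/5, Per3 4/4 and WT cortex, and striatum markers had medians of 4.59, 4.62 and 5.15, but their part in the difference was not tested. Without the cortex of WT replicate 3 and Per3 5/5 replicate 5 the differences were 0.39 (adjusted p = 0.106) and 0.40 (adjusted p = 0.0505), and with arrays centred on their medians they were 0.35 (adjusted p = 0.142) and 0.41 (adjusted p = 0.0756).

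The remaining genes overlapped broadly between genotypes in cortex and none was called. Nearest to the threshold were the Junb probe A_51_P159194, at -0.33 (95% interval -0.63 to -0.03, adjusted p = 0.0982) in Per3 4/4 against WT mice, and Fosb, at 0.34 (0.05 to 0.62, adjusted p = 0.0999) in Per3 5/5 against WT mice. They were -0.22 and 0.11 with scan day in the fit (adjusted p = 0.381 and 0.709), and within 1 scan day -0.13 and -0.03. For Fos, whose levels were -1.03, -0.49 and 0.52 in Per3 5/5, -1.10, -0.72 and 0.21 in Per3 4/4 and -0.99, -0.30 and 0.49 in WT mice, the intervals of -0.70 to 0.22 and -0.81 to 0.12 still allowed a fall of a size called in hypothalamus, and with scan day in the fit the differences were -0.07 and -0.11. Arc levels were 4.34, 4.69 and 5.19 in Per3 5/5, 4.19, 4.53 and 5.03 in Per3 4/4 and 3.81, 4.41 and 5.20 in WT mice. Its differences were 0.24 (95% interval -0.15 to 0.63) and 0.19 (-0.20 to 0.57), and 0.28 and 0.22 with scan day in the fit.

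Between the 2 knock-ins, which by design differ in the number of human repeats, no probe of these genes was called. At an unadjusted p under 0.05 there were 0 in cortex and, in hypothalamus, 2 (Npas4 and Fosb). No probe of any gene was called by limma (0% in cortex and 0% in hypothalamus, also with scan day in the fit and within 1 scan day), while 4656 and 4983 probes had an unadjusted p under 0.05. The 95% intervals reached 0.97 for Npas4 in hypothalamus and 0.85 for the dim Fosl2 probe in cortex, and for Egr1 the cortex interval was -0.31 to 0.44 and the hypothalamus interval -0.08 to 0.47.

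Whether a genotype difference was of unequal size in the tissues was tested within mice. None of the 12 probes was called by limma. For Per3 5/5 against Per3 4/4 mice, 0% of all 31228 probes were called. The share was 0.00961% for Per3 5/5 against WT and 0.0032% for Per3 4/4 against WT mice. In the same order 1, 2 and 1 of the 12 had an unadjusted p under 0.05, beside 1196, 1943 and 1562 of all probes. Egr3 was background in hypothalamus, so its values here do not measure a difference between the tissues. Npas4 came first: the difference of Per3 5/5 from Per3 4/4 mice was larger by 0.94 (SE 0.23, unadjusted p = 0.00054, adjusted p = 1) in hypothalamus than in cortex, where it was -0.23. It was 1.08 (adjusted p = 1) with scan day in the fit but 0.25 (unadjusted p = 0.256) with normexp background correction. For Egr2 the 2 knock-in differences from WT were lower in hypothalamus by -0.86 (SE 0.35, adjusted p = 0.791) and -0.75 (SE 0.35, adjusted p = 0.925), and by -1.13 and -0.95 with scan day in the fit. An Egr2, Fos or Egr1 difference that passed in hypothalamus and not in cortex is therefore not shown to differ between the tissues.

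Between mice of the same genotype, the cortical levels of these genes rose and fell together. With genotype means removed, all 45 pairs of the 10 genes had a Pearson's r above 0 over 24 mice, with a median of 0.56, and 30 pairs had an adjusted p under 0.05 (permutation within genotype, two-sided, adjusted over the 45 pairs). The mean r was 0.584, against 0.009 over all pairs of 29516 probes, an average in which positive and negative r cancel. The share of all probe pairs with r above 0 or with an adjusted p under 0.05 was not computed. The median was 0.36, 0.75 and 0.63 on the 3 scan days alone, and 0.73, 0.49 and 0.81 within the 8 Per3 5/5, 8 Per3 4/4 and 8 WT mice.

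Egr1 and Nr4a1 were the closest pair (r = 0.91, rho = 0.85, permutation p = 1e-05, the smallest that 100000 resamples can give, adjusted p = 6.43e-05). Their r was 0.81 without the 2 mice farthest from the median of Egr1 and 0.48, 0.97 and 0.96 on the 3 scan days. Fos followed Nr4a1 (r = 0.87, rho = 0.87), Junb (r = 0.84, rho = 0.80) and Egr1 (r = 0.84, rho = 0.73), each with permutation p = 1e-05 and adjusted p = 6.43e-05. Without the 2 mice farthest from the median of Fos these were 0.83, 0.79 and 0.73, and on the 3 scan days they were 0.76, 0.86 and 0.90 for Nr4a1, 0.74, 0.92 and 0.94 for Junb, and 0.09, 0.82 and 0.91 for Egr1. The link of Fos with Egr1 was thus near 0 in the 8 mice of the first scan day.

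Arc went most closely with Egr2 (r = 0.78, rho = 0.81, permutation adjusted p = 6.43e-05, 0.76 without 2 mice, 0.63, 0.86 and 0.75 by scan day). With genotype means removed, Egr3 and Fosb were the loosest of the set, with a median r of 0.43 and 0.42 with the other 9 genes. The place of Fosb depended on scan day. With scan day means removed as well, its r rose with every gene but Egr3 (0.42 to 0.41). It went from 0.42 to 0.69 with Fos (0.88, 0.84 and 0.51 by scan day) and from 0.41 to 0.57 with Nr4a1 (0.81, 0.89 and 0.32). Fosl2 and Egr3 formed the lowest pair, at r = 0.07 (rho = 0.13, permutation p = 0.778, 0.13 without 2 mice, -0.16, -0.04 and 0.00 by scan day). Some mice stood high or low for the whole set: each of the 10 genes was above its mean over all mice in Per3 5/5 replicate 8, WT replicate 6 and Per3 4/4 replicate 6, and none was in WT replicate 4 or Per3 4/4 replicate 4. The first and the last of these lay 1.79 SD above and 0.80 SD below the mean over the 10 genes, and WT replicate 4 lay 1.70 SD below. Array brightness correlated with the genes at r between -0.08 and 0.17, and the summed microglia markers at -0.60 (Junb) to -0.13 (Fosl2), both descriptions.

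**Figure D4:**
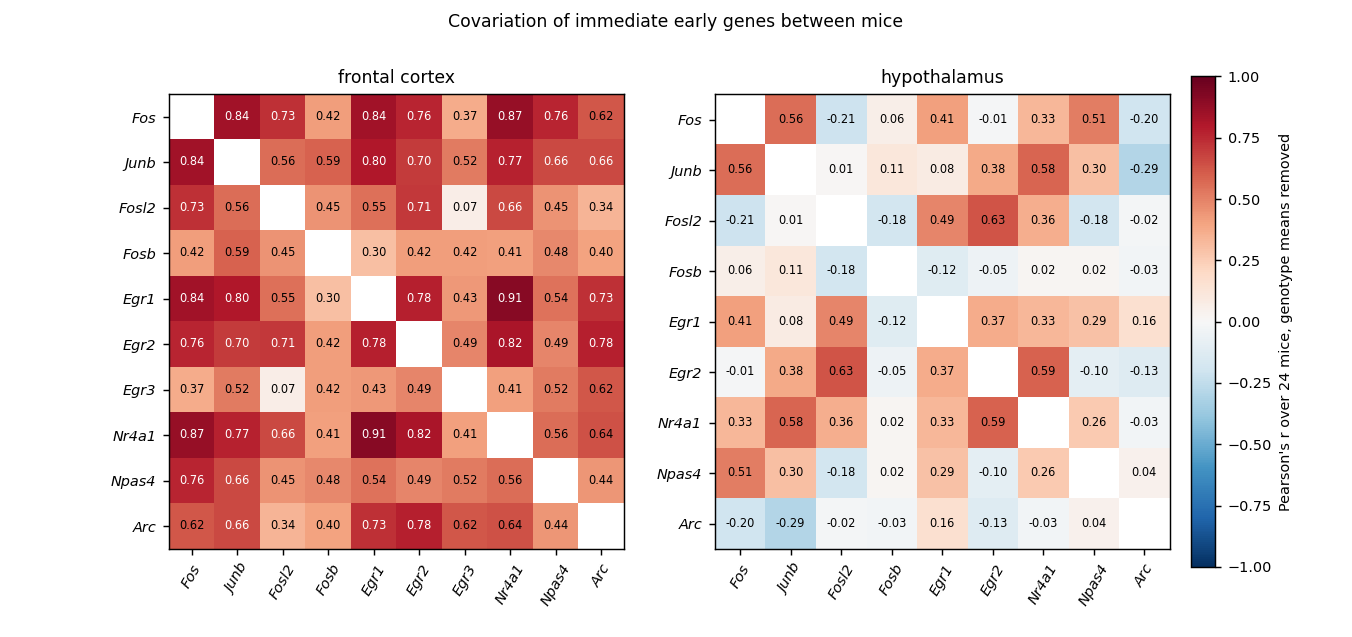
Pearson's r over 24 mice for every pair of genes (colour, from -1 in blue to 1 in red), genotype means removed, in frontal cortex (10 genes) and hypothalamus (9 genes, without Egr3). The cortex map is red throughout, from 0.07 to 0.91, and the hypothalamus map is mixed, from -0.29 to 0.63.

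In hypothalamus the same genes did not rise and fall together to a degree that passed the test. Of 36 pairs of 9 genes 23 had r above 0, the median was 0.07, and 0 pairs had an adjusted p under 0.05, with 6 at an unadjusted permutation p under 0.05. The mean r was 0.148, against 0.009 over all pairs of 30622 probes, again an average over both signs and without such a share beside it. The median was 0.46, -0.06 and 0.03 on the 3 scan days, and 0.28, 0.32 and -0.04 within Per3 5/5, Per3 4/4 and WT mice. Fosl2 and Egr2 were the closest pair (r = 0.63, rho = 0.49, permutation p = 0.0193, adjusted p = 0.139, 0.55 without 2 mice, 0.38, 0.60 and 0.87 by scan day) and Junb and Arc the lowest (r = -0.29, rho = -0.26, permutation adjusted p = 0.546, -0.08 without 2 mice, -0.04, -0.34 and -0.25 by scan day). Without both samples that held pituitary genes 1 pair passed, Fos and Junb at r = 0.73, and the median r was 0.11. In cortex, leaving out WT replicate 3 and Per3 5/5 replicate 5 kept the number of pairs at 30 and gave a median of 0.57. The SD between mice within genotypes was 0.23 to 0.51 in hypothalamus and 0.26 to 0.59 in cortex, unequal for Fos (0.28 and 0.47) and Npas4 (0.26 and 0.50) but 0.28 in both for Fosb, and whether the tissues differed in covariation was not tested.

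**Figure D5:**
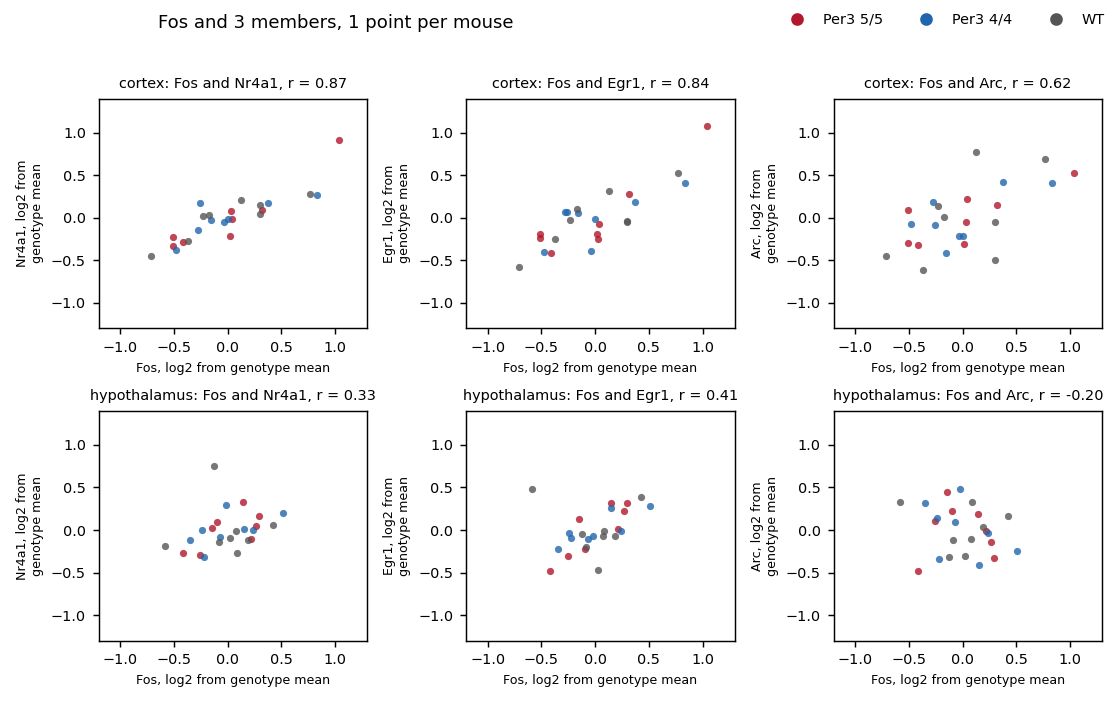
Fos (horizontal axis) against Nr4a1, Egr1 and Arc (vertical axes), as log2 difference of each mouse from the mean of its genotype, in cortex (top) and hypothalamus (bottom), 1 point per mouse. In cortex r was 0.87, 0.84 and 0.62, and in hypothalamus 0.33, 0.41 and -0.20.

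A mouse high for a gene in cortex was not reliably high for it in hypothalamus. Over 24 mice the r between tissues was above 0 for all 9 genes, with a median of 0.25, but none had an adjusted p under 0.05 or an unadjusted one (permutation within genotype). Over all 28918 probes the median was 0.35 and 89.8% were above 0, so the 9 genes were no higher than probes in general. Fos was highest (r = 0.38, rho = 0.39, permutation p = 0.0813, adjusted p = 0.465, 0.39 without 2 mice, 0.31, 0.49 and 0.15 by scan day).

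The genes outside the list with the closest cortical pattern were found by r with Fos and with Arc over the same 24 mice, as a description. For Fos they were Btg2 (r = 0.86), Gadd45b (0.85), Egr4 (0.84), Ptgs2 (0.84) and Dusp1 (0.80). For Arc they were Trib1 (0.84), Csrnp1 (0.83), Trib2 (0.80), Ier2 (0.79) and Dusp6 (0.78). Of the 9 other genes of the list, 6 were among the 100 probes most like Fos and 6 among the 100 most like Arc. In hypothalamus the closest to Fos were Cert1 (0.79), Tmem41b (0.79), Fkbp1b (0.79), Layn (0.78) and E030011O05Rik (0.78), and among the closest to Arc were Septin8 (0.75), Rusc2 (0.74), Cbr3 (0.73) and Rhbdd3 (0.72), and 0 genes of the list were among the 100 probes most like either.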

How the data were processed

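RNA was measured on 48 one-colour Agilent whole mouse genome arrays (24 mice, 2 tissues). Per the file headers, the deposited files of Agilent Feature Extraction 10.7.1.1 hold for each spot a processed intensity, background subtracted and detrended within the array, and the raw median intensity of spot and local background. In the deposited series table are log2 values, shifted by the authors to the 75th percentile of each array and, judged from the values, centred per probe within each tissue.

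Groups came from the labels. The processed signal of the 43379 non-control spots was put on a log2 scale relative to the 75th percentile of its array, outlier spots (48 to 172 per array) were left out, and spots of a probe were averaged. Probes were named through RefSeq accessions (67.2% of 41174 probes). Only probes well above background in 6 or more of the 8 arrays in any group were tested. Genotypes (3 group means per tissue) and within-mouse tissue differences were fitted with limma 3.58.1 (lmFit, eBayes, two-sided, R 4.3.3) over all tested probes, Benjamini-Hochberg adjusted and called at an adjusted p under 0.05. Correlations used numpy 2.4.6 in Python 3.11.15 with 100000 permutations within genotype (all permutations within a scan day), and, for genes with several tested probes, the brightest by mean signal. The p-values measure the spread between mice, 1 array each. The number of arrays limits the precision. Tested on simulated data for Per3 5/5 against WT in cortex, the fit called 48% of probes given a log2 difference of 0.5 and 81% given 1. Within mice it called 89% and 99%, and 5.8% and 2.1% were false among those called. The simulated probes were independent, without a scan day effect, and had the spread of single cortex arrays, also for differences within mice. These rates therefore need not hold for the real arrays.

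The genes and lists were chosen with earlier results of these data known. Named are all probes of the 10 genes, of other immediate early genes those called (4 largest differences per comparison), the 5 genes most like Fos and Arc (1 of which is not reported here), and the highest and lowest pair. Alternatives were normexp background (offset 50), median centring, quantile normalization, no filter, scan day, slide or replicate number as a block, 1 scan day alone, the authors' table, the methods' t-test, and leaving out mice. Leaving out the mice with dim arrays or with markers of another region was chosen after seeing the data.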

Additional observations from a re-analysis of the deposited data

Results flagged for a closer look

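Of 69 groups of 8 mice checked for a sample far from the others, 3 stood out, near the 1 in 20 that chance gives. In the cortex of Per3 5/5 mice, replicate 8 had Egr1 at 4.91 and Nr4a1 at 5.62, and the next highest mice were at 4.12 and 4.80. That mouse also had all 10 genes above their means. In the hypothalamus of WT mice, replicate 8 had Nr4a1 at 3.15 and the next highest mouse 2.46, and its summed pituitary markers were 9.55. The part of these markers in the Nr4a1 value was not tested, and without this mouse and Per3 5/5 replicate 8 the hypothalamus counts were 4 for Per3 5/5 and 3 for Per3 4/4 against WT mice.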

How the results depend on the processing

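All 12 probes (Egr3 on a background signal) stayed lower in hypothalamus and called under all 31 alternatives. Differences ran from -3.94 to -2.95 for Egr2, -2.71 to -1.43 for Npas4 and -3.36 to -0.78 for Egr3. For the 2 Fosl2 probes they ran from -1.13 to -0.68 and from -0.91 to -0.31. With normexp Npas4 (-1.43) thus differed by less than Junb (-1.98 and -2.04). No called difference turned its sign. In cortex 1 probe (Egr3) was called against WT in each knock-in. For Per3 5/5 the count was 0 within 1 scan day, with median centring, quantile normalization, scan day as a block, slide as a block, the methods' t-test, and without the 2 mice with markers of another region, and 3 with normexp. For Per3 4/4 it was 0 within 1 scan day, with median centring, quantile normalization, scan day as a block, without the 2 dim mice, and without the 2 mice with markers of another region, and 3 with normexp. In hypothalamus 5 probes were called in each. For Per3 5/5 the count was 0 within 1 scan day and with normexp, 1 with scan day as a block, and 3 with slide as a block and with the methods' t-test. For Per3 4/4 it was 0 within 1 scan day and with scan day as a block, 1 with normexp (Junb), and 3 with slide as a block, with the methods' t-test and without the 2 mice with markers of another region. Leaving out 1 mouse at a time gave 0 to 2 (Per3 5/5) and 1 to 2 (Per3 4/4) in cortex, 4 to 6 and 3 to 7 in hypothalamus, 0 to 1 between the knock-ins in hypothalamus and 0 to 0 in cortex. Egr3 in Per3 5/5 cortex was lost without Per3 5/5 replicates 1, 2, 3 or 5 or WT replicates 3, 4 or 7 (adjusted p 0.0523 to 0.0747), Egr2 in Per3 4/4 without Per3 4/4 replicates 1 or 3 or WT replicates 2, 3 or 8 (0.0502 to 0.0641), Junb in Per3 5/5 without Per3 5/5 replicates 1, 2 or 5 or WT replicates 1, 2, 4 or 8 (0.0518 to 0.0704), Fosb without Per3 5/5 replicate 3 (0.0506), and Fos without any 1 of 18 of the 24 mice (0.052 to 0.108), that is, all but Per3 4/4 replicate 6, Per3 5/5 replicates 2, 3, 6 and 7 and WT replicate 3. The cause of these changes was not tested. For covariation in cortex (30 pairs) scan days 1, 2 and 3 alone, of 8 mice each, gave 0, 6 and 0 pairs. In hypothalamus (0 pairs) median centring gave 1, the other probe of a gene 1, leaving out the 2 mice with markers of another region 1, leaving out the 2 mice farthest from the median 2, normexp 5 and no centring on genotype means 11. Between tissues (0 genes) normexp gave 1. With the replicate number as a block the counts against WT were 1 (Per3 5/5) and 1 (Per3 4/4) in cortex and 4 and 5 in hypothalamus, where Fosb was lost (0.0504), with 12 between tissues and 0 between the knock-ins and for unequal size in the tissues. Over all pairs, mice of the same number showed little common deviation (median r 0.02 in cortex and 0.08 in hypothalamus, with 10 and 11 of 24 pairs over 0.1). For replicates 1 to 4 of Per3 5/5 and Per3 4/4, however, the same number also meant the same slide and scan day. Dim probes set the limit: Egr3 had no measured level in hypothalamus, and the dimmer Fosl2 probe was well above background on 5 to 8 of 8 arrays of a group.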

Other observations

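Of 64 other immediate early, activity-regulated and upstream genes, 59 were tested. Over all mice 40 were lower and 13 higher in hypothalamus (67.8% and 22%, against 35.6% and 38.1% of all probes), with a median difference of -0.52 (log2), led by Ptgs2 (-4.73, a prostaglandin synthase), Mef2c (-4.39), Egr4 (-3.97) and Klf10 (-2.91). Of the 7 AP-1 partner genes 4 were higher and 1 lower in hypothalamus.

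Against WT mice, hypothalamus had 5 higher and 6 lower in Per3 5/5 and 3 higher and 7 lower in Per3 4/4 mice, that is 18.6% and 16.9% of the 59, near the 18.8% and 15.1% of all probes. The 4 largest were Ptgs2 (-0.62), Mef2d (0.61, a calcium-responsive factor), Camk4 (0.52, a CREB kinase) and Rgs2 (-0.49) in Per3 5/5, and Plk2 (-0.59), Egr4 (-0.55), Mef2d (0.47) and Gem (-0.46) in Per3 4/4 mice. Cortex had 6 higher and 1 lower in Per3 5/5 (Camk4 0.51, Ptgs2 -0.51, Mef2d 0.45, Mef2a 0.36) and 5 higher and 5 lower in Per3 4/4 mice (Nab2 -1.54, Plk2 -0.60, Jun -0.53, Mef2d 0.50), that is 11.9% and 16.9%, no more than the 12.4% and 22.5% of all probes. With scan day in the fit, Camk4 in Per3 5/5 hypothalamus (0.50, adjusted p = 0.0465) was still called. So were Jun (-0.49, adjusted p = 0.0234), Arl4d (-0.36), Camk4 (0.38) and Mef2d (0.31) in Per3 4/4 cortex. That is 1 of the 59 genes in the first fit, where 2.1% of all probes were called. In the second it is 2 higher and 2 lower of the 59, where 7.72% of all probes were called. Neither is more than the share of all probes. The shares pool several lists. Of the 10 upstream factors and kinases, Per3 5/5 mice had 4 higher in hypothalamus and 4 in cortex without scan day in the fit. That is 40% each, against 10.3% and 8.44% of all probes. Per3 4/4 mice had 3 and 4 higher (30% and 40%, against 8.24% and 13.4%), and 0 were lower in any of these. With scan day in the fit 1 and 0 stayed higher in Per3 5/5 and 0 and 2 in Per3 4/4 mice. None of the 59 genes was called between the knock-ins.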
